A study of Danio rerio with 12 samples.

Results

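EGLN3, NDRG1 and ca9 are genes that low oxygen induces in many vertebrate cells. They are described here in whole zebrafish larvae that were untreated, exposed to dextran-coated iron oxide nanoparticles, or kept under a condition named IC. The members are the rows of the deposited count table whose symbols, in any letter case, are EGLN3 (ENSDARG00000032553), NDRG1 (ENSDARG00000032849) and ca9 (ENSDARG00000102300). That gave 3 rows of 19983 in the table and of 16807 with at least 1 CPM (the usual depth-scaled read count) in a library, and all 3 members passed this filter. They were chosen by their counts in IC against control, as hypoxia-response genes above control in the IC library. Their values in that contrast are therefore a description. Dx-IONP against IC and Dx-IONP against control each share a library with it, so the choice bears on them too.

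The larvae carried the Tg(fli:EGFP) transgene, in which the fli promoter drives a fluorescent protein in blood vessels, and all 3 groups shared it. RNA was taken at 120 hours after fertilization from a pool of 20 embryos per group, and 1 poly(A) library was made from each pool. The groups were control larvae, IC larvae and Dx-IONP larvae. IC is not explained in the labels. The library protocol speaks of an iron group beside control and nanoparticle, which leaves IC as the iron group by elimination. The sources used here give no dose, duration or route. Each library was read on 4 lanes, which GEO lists as 4 samples, so there is 1 library per condition and no replicate check of any difference between conditions.

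Cells sense oxygen through prolyl hydroxylases of the EGLN family, enzymes that need iron, oxygen and oxoglutarate. With oxygen present they mark the alpha subunits of the hypoxia-inducible factors (HIF), and the VHL protein then directs those subunits to degradation. When oxygen or iron is short, HIF accumulates, pairs with an ARNT subunit and switches on genes of glucose use, vessel growth, pH control and matrix assembly. EGLN3 is both an oxygen sensor and a HIF target, so it feeds back on the pathway. NDRG1 encodes a stress-induced cytoplasmic protein named for its link to differentiation, and in mammals it is also induced by iron chelators. Ca9 is a carbonic anhydrase of the cell surface that turns carbon dioxide and water into bicarbonate and acid and is a widely used marker of hypoxic tissue in mammals.

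The control library held 84043873 reads, the IC library 48283541 and the Dx-IONP library 55381504. CPM values were scaled by TMM factors (trimmed mean of M values). The control factor was 1.11, that of IC 1.05 and that of Dx-IONP 0.86. Intervals are exact 95% counting intervals. They cover counting error alone: PCR copies of a molecule were not marked, and another pool of larvae could differ. A gene is counted as higher or lower where the libraries differed 2-fold or more and the interval of the ratio excluded equality. By that rule 14.1% of the genes tested were higher in IC than in control and 15.1% lower. In Dx-IONP against control 20.9% were higher and 24.2% lower, and in Dx-IONP against IC 24.1% were higher and 26.5% lower. In bulk RNA of whole larvae, fewer cells of a type and less RNA per cell cannot be told apart.

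The 3 genes were all highest in the IC library, and they parted ways in the Dx-IONP library. EGLN3 was also above control in Dx-IONP, NDRG1 lay within 2-fold of control, and ca9 was below control. EGLN3, the oxygen sensor, had 9.97, 10.6, 11.7 and 11.7 CPM on the 4 control lanes. On the IC lanes it had 52.0, 53.9, 49.7 and 53.3 CPM. On the Dx-IONP lanes it had 34.6, 33.6, 32.6 and 33.8 CPM. The lanes of the 3 libraries did not overlap, and the order was IC, then Dx-IONP, then control. Summed over lanes, 1025 control reads, 2655 IC reads and 1598 Dx-IONP reads stood behind these levels. In IC against control EGLN3 was 4.73-fold higher (4.41 to 5.10), a log2 fold of 2.24, and 195 of the 16807 genes had a larger one. Set against control, the same library the choice of the gene rested on, Dx-IONP was 3.05-fold higher (2.82 to 3.31), a log2 fold of 1.61 (1.498 to 1.73). In that contrast 1766 genes, or 10.5%, had a larger log2 fold. Dx-IONP stood below IC by a log2 fold of -0.63 (-0.72 to -0.54), under the 2-fold line in each of the 4 lanes.

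NDRG1 was the most deeply counted of the members, with 22085 control, 42095 IC and 14314 Dx-IONP reads. Its control lanes stood at 237, 233, 240.1 and 238 CPM. Its IC lanes stood at 833, 816, 831 and 831 CPM. Its Dx-IONP lanes stood at 307, 302, 293 and 304 CPM. The IC lanes were thus far above the rest, while the Dx-IONP lanes were a small step above the control lanes with no overlap. IC was 3.49-fold above control (3.43 to 3.55), a log2 fold of 1.80, with 476 genes at a larger log2 fold. Dx-IONP against control had a log2 fold of 0.35 (0.31 to 0.38), which 39.3% of all genes exceeded. The direction of that small difference depended on the scaling, since total reads alone gave -0.02 (-0.05 to 0.01). Dx-IONP was 2.75-fold below IC (2.69 to 2.80), and all 4 lanes shared that direction. The name table gives the symbol NDRG1 to 2 identifiers, of which 1 has a row in the table analysed here. RefSeq lists a pair of zebrafish copies, ndrg1a and ndrg1b, and the sources used here do not say which of them the row represents.

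The carbonic anhydrase gene ca9 had 8.34, 8.46, 9.65 and 8.82 CPM on the control lanes. On the IC lanes it had 25.7, 23.6, 24.98 and 29.8 CPM. On the Dx-IONP lanes it had 3.79, 4.99, 4.23 and 4.03 CPM. No lane of one library overlapped a lane of another, and the order was IC, then control, then Dx-IONP. The counts were 821, 1323 and 202 reads in the control, IC and Dx-IONP libraries, so the Dx-IONP level of 4.25 CPM (3.69 to 4.88) was the least precise of the 9 levels. IC was 2.94-fold above control (2.70 to 3.22), with 784 genes at a larger log2 fold. Dx-IONP against control had a log2 fold of -1.05 (-1.28 to -0.83), and 23.4% of all genes had a lower one. That value sat on the 2-fold line, and without lane 3 of every library it was -0.996 and no longer counted as lower. Dx-IONP against IC was the widest gap among the 3 genes, 6.12-fold lower (5.27 to 7.13), a log2 fold of -2.60, and 8.39% of all genes had a lower one.

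**Figure D1:**
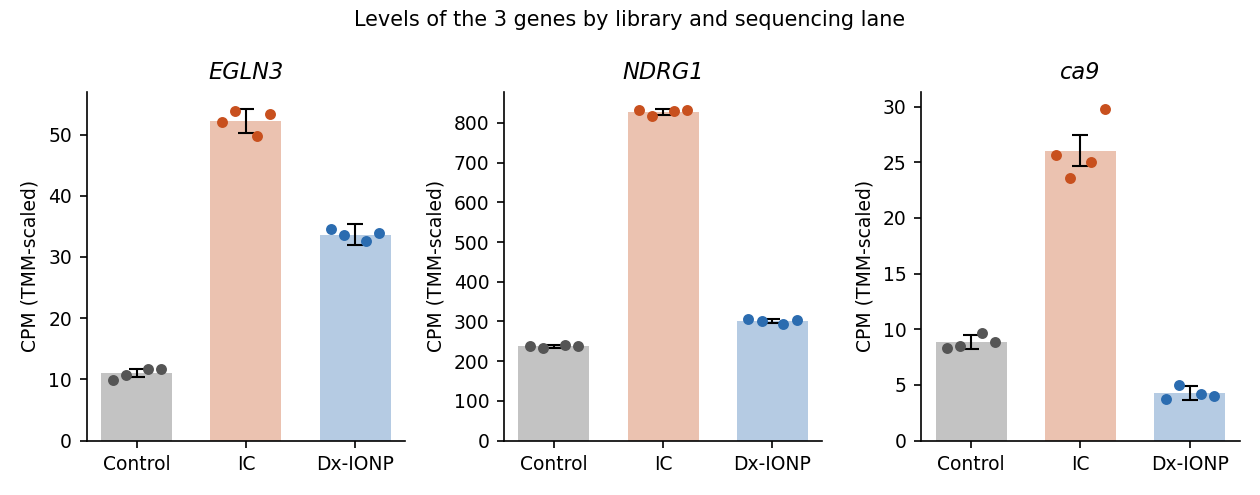
Levels of EGLN3, NDRG1 and ca9 in CPM after TMM scaling (vertical axes from 0) in the control, IC and Dx-IONP libraries. Bars are summed libraries with 95% counting intervals and points are the 4 lanes. All 3 genes are highest in IC, while in Dx-IONP EGLN3 stands at 33.7 CPM against 11.0 in control and ca9 at 4.25 against 8.82.

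Reads of 1 member per read of another compare the genes inside a library, where the scaling between libraries drops out. These ratios do not compare the genes' levels, since transcript lengths differ. For each 100 NDRG1 reads there were 4.64 EGLN3 reads in control (4.36 to 4.94). The IC library had 6.31 (6.06 to 6.56) and Dx-IONP 11.2 (10.6 to 11.8). EGLN3 thus held the largest share relative to NDRG1 in Dx-IONP, and the lane ranges of the 3 libraries did not overlap. For each ca9 read control had 1.25 EGLN3 reads (1.14 to 1.37), IC 2.01 (1.88 to 2.15) and Dx-IONP 7.91 (6.83 to 9.20). Among these pairs the balance of EGLN3 and ca9 moved most. NDRG1 reads per ca9 read numbered 26.9 for control (25.1 to 28.9), 31.8 for IC (30.1 to 33.6) and 70.9 for the Dx-IONP library (61.7 to 81.8). Lanes of control and IC overlapped in this last ratio, with 24.9 to 28.4 in control and 27.9 to 34.6 in IC, whereas the intervals of the summed libraries did not.

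**Figure D2:**
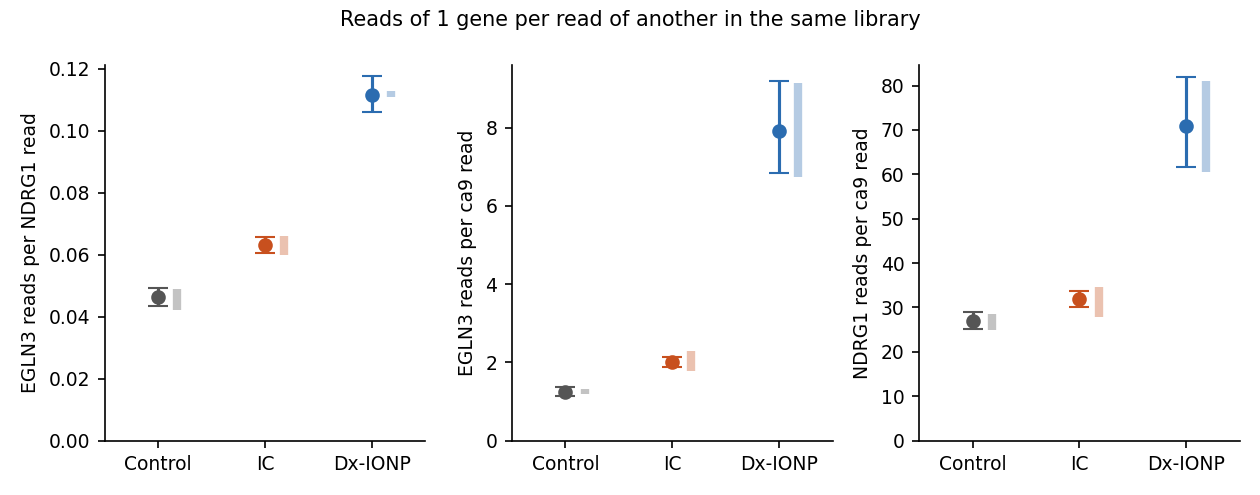
Reads of 1 gene per read of another within the control, IC and Dx-IONP libraries (vertical axes from 0). Points with bars are summed libraries with 95% counting intervals, and the pale strip beside each is the range of the 4 lanes. EGLN3 reads per ca9 read stand at 1.25, 2.01 and 7.91.

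The genes most like each member were found by the distance between their pair of log2 folds against control, over 3 libraries, among 10609 other genes with at least 10 CPM in a library. Nearest to EGLN3 was PID1, with 5.67 CPM in the control library, 26.1 in IC and 17.4 in Dx-IONP, at a distance of 0.04 log2 units. The collagen gene col23a1a and the tensin gene tns2a, whose product binds focal adhesions, followed at 0.11 each. Within 0.2 units of EGLN3 there were 9 genes. Nearest to NDRG1 were tent5bb at 0.03, SDF2, which encodes a protein of the endoplasmic reticulum, at 0.05, and the RNA phosphatase gene dusp11 at 0.07. The pattern of NDRG1 was the most common, with 32 genes within 0.2 units. Nearest to ca9 were ADCYAP1R1, a receptor for the neuropeptide PACAP, at 0.07, the zinc finger repressor gene HIC1 at 0.10 and the activin subunit gene INHBA at 0.12, and 10 genes lay within 0.2 units. With 3 libraries such nearness describes these pools and nothing more.

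Within their own families the members had the highest or near-highest folds in IC. They were chosen on that contrast, so this rank restates the choice. Of the EGLN family, EGLN2 was higher in IC at a log2 fold of 1.40 (1.26 to 1.55), with 17.7 CPM against 6.69 in control. EGLN1 (ENSDARG00000004632), the main HIF hydroxylase in mammals, was at 0.44 (0.39 to 0.49), with 104.1 CPM against 76.8. A second row named EGLN1 (ENSDARG00000038996) had 88 control, 27 IC and 36 Dx-IONP reads and was left out by the filter. In Dx-IONP EGLN2 was at 0.80 (0.64 to 0.97) and EGLN1 (ENSDARG00000004632) at -0.0050. The order EGLN3, EGLN2, EGLN1 therefore held in both exposed libraries, which share the control they are set against.

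The NDRG family did not move as one. NDRG4, a gene of nervous and heart tissue, was at 0.60 (0.58 to 0.61) in IC and at -3.91 (-3.98 to -3.84) in Dx-IONP, where it had 34.9 CPM against 523 in control. NDRG3 was at -0.51 (-0.81 to -0.23) in IC and -0.70 (-1.02 to -0.40) in Dx-IONP, on 138 and 113 reads. NDRG1 was the only one of these 3 rows counted as higher in either exposed library against control. That was in IC, the contrast it was chosen on.

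Of 12 carbonic anhydrase rows tested, ca9 included, 3 were higher and 2 lower in IC against control, and 2 were higher and 7 lower in Dx-IONP. In IC that made 25% and 16.7%, beside 14.1% and 15.1% of all genes, but ca9 was chosen for being above control there. In Dx-IONP the higher share of 16.7% lay below the 20.9% of all genes and the lower share of 58.3% above their 24.2%. Besides ca9, the membrane-bound ca4c was higher in IC, at 2.12 (1.80 to 2.52), and in Dx-IONP, at 2.51 (2.20 to 2.90). CA8, a relative without enzyme activity, was at 1.16 in IC and -0.46 in Dx-IONP. Its signs matched those of ca9, but it stayed within 2-fold of control in Dx-IONP. The membrane-bound ca4b was at -5.19 (-6.78 to -4.41) and ca4a at -3.00 (-3.26 to -2.77) in Dx-IONP. Both CA10 rows, brain genes of the family, were lower in each exposed library, with ENSDARG00000052644 at -1.86 in IC and -2.67 in Dx-IONP. The red cell enzyme gene cahz was at 0.75 in IC and 1.5005 in Dx-IONP. Without ca9, 2 of the 11 other rows were higher and 2 lower in IC, and 2 were higher and 6 lower in Dx-IONP. These 11 rows had a median log2 fold of 0.01 in IC and -1.21 in Dx-IONP, beside -0.0011 and 0.03 over all genes.

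**Figure D3:**
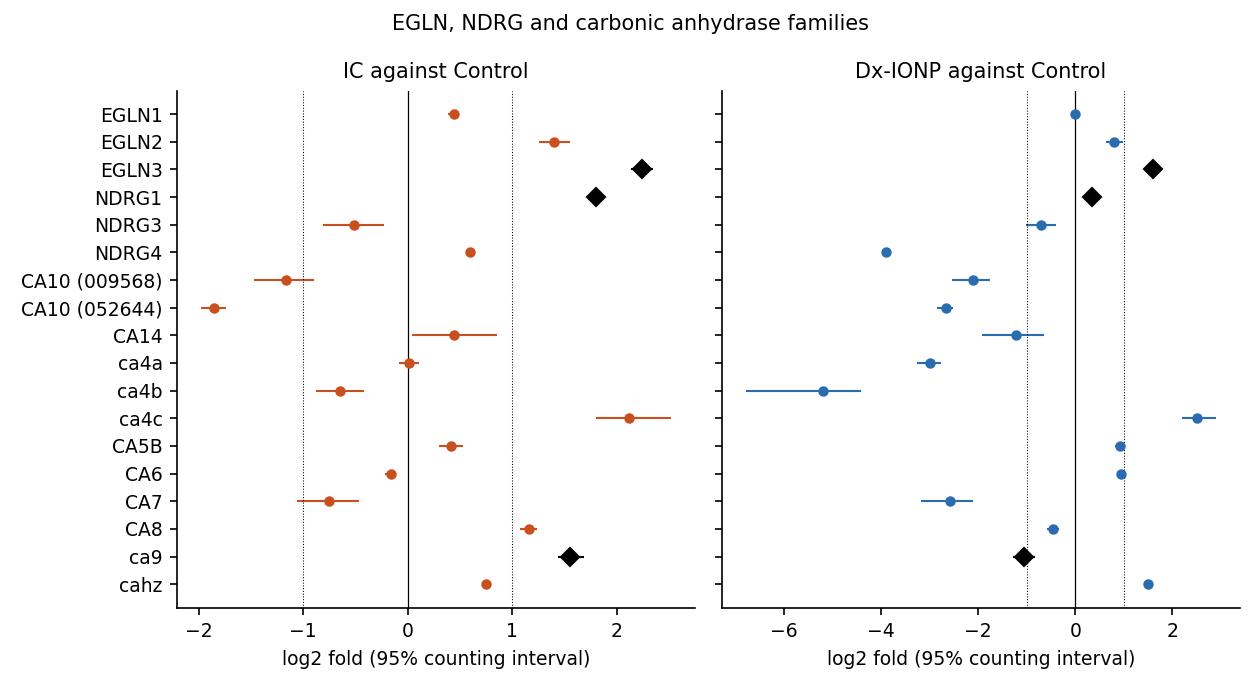
Log2 folds with 95% counting intervals (horizontal axes, different ranges) of the EGLN, NDRG and carbonic anhydrase rows in IC (left) and Dx-IONP (right) against control. Black diamonds are EGLN3, NDRG1 and ca9, dotted lines mark a 2-fold difference, and numbers in brackets are the last digits of an identifier. The 3 members lie right of the line in IC and on both sides of 0 in Dx-IONP.

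The members stand in a wider pathway, for which 7 lists of HIF pathway genes were drawn up by role. Earlier results of these data were known when the lists were chosen, so their counts here and below are a description. Without the members, 99 rows matched and 91 were tested. In IC against control 19 of them (20.9%) were higher and 5 (5.49%) lower, beside 14.1% and 15.1% of all genes, with a median log2 fold of 0.23 against -0.0011 over all genes. In Dx-IONP against control 21 (23.1%) were higher and 20 (21.98%) lower, close to the 20.9% and 24.2% of all genes, with a median of 0.31 against 0.03. In Dx-IONP against IC 18 (19.8%) were higher and 24 (26.4%) lower, again near the 24.1% and 26.5% of all genes. In IC higher rows thus outnumbered lower ones, although 67 of 91 rows passed in neither direction. The counts in Dx-IONP depended on the scaling, as they did for all genes. With total reads alone 93 rows were tested, and 13 (14.0%) were higher and 30 (32.3%) lower than control, beside 13.7% and 31.7% of all genes. Among the rows then counted as lower were HIF1A at -1.26, ARNT2 at -1.06, ELOB at -1.25 and STC2 (ENSDARG00000056680) at -1.22.

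**Figure D4:**
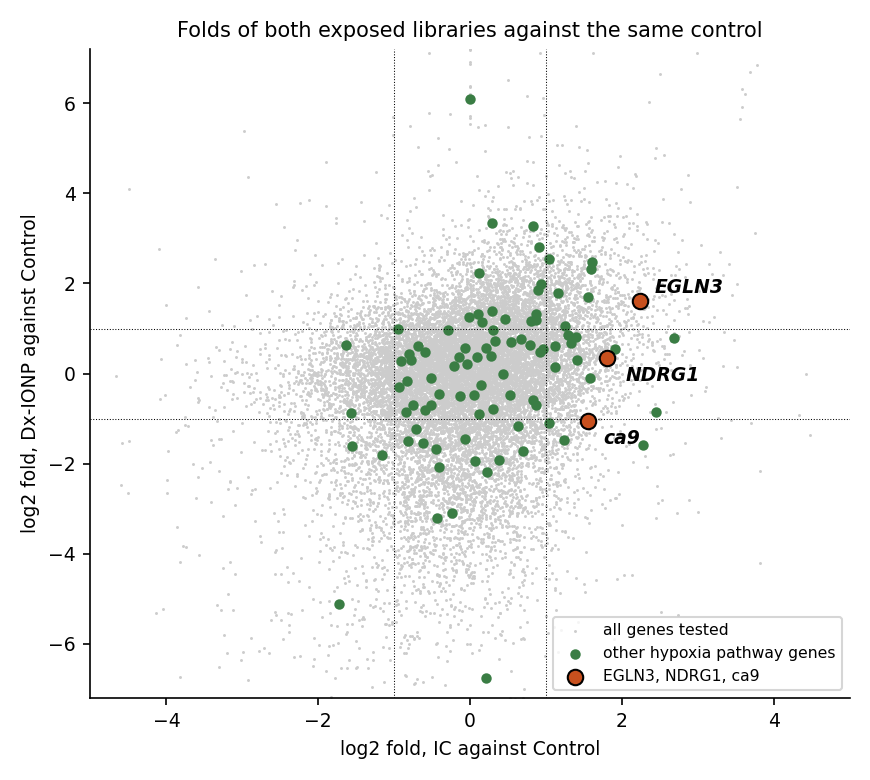
Log2 folds of IC (horizontal axis) and Dx-IONP (vertical axis) against the same control library for all genes tested (grey), other hypoxia pathway genes (green) and EGLN3, NDRG1 and ca9 (orange). Dotted lines mark 2-fold differences, and both axes share the control library. Another 166 genes lie outside the axes. The 3 members lie near one another on the horizontal axis, at 2.24, 1.80 and 1.56, and apart on the vertical one, at 1.61, 0.35 and -1.05.

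None of the 6 HIF subunit rows was higher or lower in IC, beside 14.1% and 15.1% of all genes. HIF1A, an alpha subunit gene, had 337 CPM in IC against 310.5 in control, and EPAS1, which encodes the alpha subunit HIF-2, had 41.5 against 26.1. ARNT2, a beta subunit gene, was at 0.87 (0.83 to 0.91) in IC. The other beta subunit gene, arnt, was at 0.91 (0.50 to 1.37) on 95 reads, and without lane 2 or lane 3 it was counted as higher, at 1.05 or 1.15. In Dx-IONP 3 of the 6 rows (50%) were higher than control and 0 lower, beside 20.9% and 24.2% of all genes. The higher ones were arnt at 2.81 (2.51 to 3.198), hif1al at 1.24 (1.22 to 1.27) and hif1al2 at 1.32 (1.22 to 1.43). Scaled to total reads alone, hif1al was at 0.88 and hif1al2 at 0.95 and neither was counted. HIF1A was at -0.89 (-0.92 to -0.85) and ARNT2 at -0.69 in Dx-IONP.

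Among the other oxygen sensors and the genes that degrade HIF, 2 of 10 rows were higher and 1 lower in IC, and 2 were higher and 2 lower in Dx-IONP. These counts were near the shares over all genes, 14.1% and 15.1% in IC and 20.9% and 24.2% in Dx-IONP. EGLN2, above, and P4HTM (ENSDARG00000071233), a prolyl hydroxylase of the endoplasmic reticulum membrane, were the higher ones in IC. This P4HTM row followed the order of ca9, with 41.2 CPM in IC, 17.5 in control and 6.28 in Dx-IONP. The second P4HTM row (ENSDARG00000075209) was at -0.24 in IC and -3.11 (-3.56 to -2.75) in Dx-IONP. HIF1AN, the asparagine hydroxylase that limits HIF activity, was at 0.05 in IC and -0.47 in Dx-IONP. The gene vhl, whose protein recognises hydroxylated HIF, was at -0.84 (-0.97 to -0.70) in IC and -0.16 in Dx-IONP. ELOB, a partner of VHL in its ligase, was lower in IC at -1.56 (-1.60 to -1.53), and RBX1, the ring subunit of that ligase, was at -0.95 in IC and 0.98 in Dx-IONP. The VHL-like gene vhll was higher in Dx-IONP at 2.22 (1.71 to 2.99), on 77 reads against 30.

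Signals to vessels and hormone-like genes held the most IC-high rows, 8 of 17 (47.1%) with 0 lower, beside 14.1% and 15.1% of all genes. They included the chemokine gene CXCL12 (ENSDARG00000037116) at 2.28 (2.24 to 2.31), its relative cxcl12b at 1.91 (1.83 to 1.995), STC2 (ENSDARG00000056680), a stanniocalcin gene, at 2.45 (2.39 to 2.52), and STC2 (ENSDARG00000102206) at 1.33 (0.91 to 1.82). CXCL12 followed the order of ca9, with 533 CPM in IC, 110.0 in control and 36.9 in Dx-IONP. STC2 (ENSDARG00000056680) had the same order, with 138.7, 25.3 and 14.1 CPM. Of the rows for vascular endothelial growth factor A, VEGFA (ENSDARG00000103542) was at 1.12 (1.01 to 1.23) in IC and VEGFA (ENSDARG00000034700) at -0.41. Of the 17 rows 2 (11.8%) were higher and 3 (17.6%) lower in Dx-IONP, both below the 20.9% and 24.2% of all genes. Both higher rows were chemokine receptor genes, CXCR4 (ENSDARG00000057633) at 3.35 (3.21 to 3.50) and CXCR4 (ENSDARG00000041959) at 1.80. Apelin, APLN, was lower at -2.18 (-2.28 to -2.08).

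Glycolysis genes, classic HIF targets, were mixed in IC, with 3 of 26 higher and 3 lower (11.5% each, beside 14.1% and 15.1% of all genes) and a median log2 fold of 0.08. The higher rows were the lactate exporter SLC16A3 (ENSDARG00000045051) at 2.68 (2.59 to 2.78), the pyruvate kinase row PKM (ENSDARG00000099860) at 1.57 (1.55 to 1.59) and GAPDH at 1.04. The estimate for SLC16A3 was uneven between control lanes, with 160 reads on the lowest and 342 on the highest. GAPDH was at 0.97 with total reads alone and was then not counted. The second PKM row (ENSDARG00000099730) was at -0.82 in IC and at -1.50 in Dx-IONP, where it was counted as lower. LDHA, which makes lactate, was at -0.59 (-0.62 to -0.57) in IC and -0.81 in Dx-IONP. Dx-IONP had 3 rows higher (11.5%) and 8 lower (30.8%) than control, beside 20.9% and 24.2% of all genes, with GAPDH at 2.55 and the brain aldolase row ALDOC (ENSDARG00000057661) at -5.12 (-6.47 to -4.40). PFKP, a phosphofructokinase gene, had 0 reads in Dx-IONP and was at least 52.9-fold lower than control, with the 0 set to a floor of 3 counts per library. Why it had 0 reads was not tested, and its estimated count is uncertain.

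Of 14 genes of mitochondrial turnover and metabolic switching, 2 were higher in IC and 0 lower. The higher share, 14.3%, was that of all genes (14.1%), while 15.1% of all genes were lower. The higher rows were the mitophagy receptor genes BNIP3L (ENSDARG00000028067), at 1.40 (1.37 to 1.44), and BNIP3, at 1.04 (0.89 to 1.21). The second BNIP3L row (ENSDARG00000025468) was at 0.30 in IC and 0.97 in Dx-IONP. BNIP3 followed the order of ca9, with 13.4 CPM in IC, 6.46 in control and 2.99 in Dx-IONP, but it was at 0.99 in IC without lane 1 and at 0.97 with total reads alone. Dx-IONP had 1 higher (7.14%, beside 20.9% of all genes) and 5 lower (35.7%, beside 24.2%). DDIT4, an inhibitor of growth signalling through mTOR, was higher at 1.99 (1.90 to 2.09), and the cytochrome oxidase subunit COX4I2 was lowest at -3.21 (-3.39 to -3.05).

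Of 7 matrix rows 3 (42.9%) were higher and 0 lower in IC, beside 14.1% and 15.1% of all genes. In Dx-IONP 6 (85.7%) were higher and 1 (14.3%) lower, beside 20.9% and 24.2%. Counted as higher in both exposed libraries, which share their control, were p4ha1a, PLOD1 and loxl2a. The collagen prolyl hydroxylase gene p4ha1a was at 1.61 (1.51 to 1.72) in IC and 2.48 (2.39 to 2.58) in Dx-IONP. The collagen lysyl hydroxylase gene PLOD1 was at 1.59 (1.54 to 1.65) and 2.32 (2.27 to 2.37). The collagen cross-linking gene loxl2a was at 1.55 and 1.69. The hydroxylases p4ha1a and PLOD1 need the same iron and oxoglutarate as EGLN3, but their order was different, with p4ha1a at 13.0 CPM in the control library, 39.9 in IC and 73.0 in Dx-IONP. The row col18a1b, a collagen gene, was the lower one in Dx-IONP, at -1.72.

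Among 11 other HIF targets 1 was higher and 1 lower in IC (9.09% each, beside 14.1% and 15.1% of all genes). The hydroxylase gene JMJD6 was higher at 1.25 (1.13 to 1.37), and the haem-degrading enzyme gene HMOX1 lower at -1.64 (-1.74 to -1.54). In Dx-IONP 4 (36.4%) were higher and 1 (9.09%) lower, beside 20.9% and 24.2%. The transferrin receptor gene tfr1a, which brings iron into cells, was at 3.28 (3.18 to 3.40) there and at 0.83 (0.68 to 0.97) in IC. The related tfr1b was at 0.37 in Dx-IONP and -0.15 in IC. JMJD6 was at 1.06 in Dx-IONP, or 0.69 with total reads alone. The sterol regulator gene insig1 had 101 reads in Dx-IONP and 0 elsewhere, so it was at least 66.0-fold above control by the same floor, an estimate that is uncertain.

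**Figure D5:**
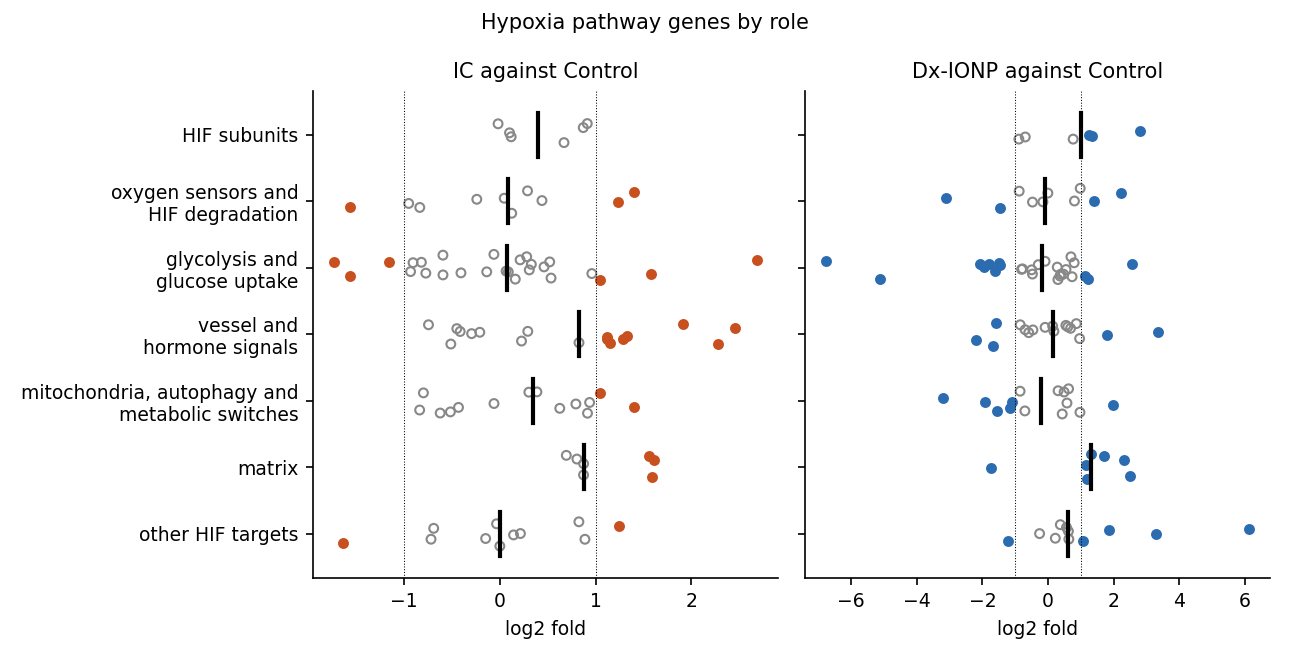
Log2 folds of hypoxia pathway genes other than EGLN3, NDRG1 and ca9, by role, in IC (left) and Dx-IONP (right) against control. Filled points passed the 2-fold rule with its counting interval, open points did not, black bars are medians and dotted lines mark 2-fold; the horizontal ranges differ. Vessel and hormone signals have 8 of 17 points filled on the higher side in IC, and matrix genes 6 of 7 in Dx-IONP.

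Other properties of the libraries moved beside these genes, and their part in the results was not tested. Beside 14.1% and 15.1% of all genes, 13 of 14 cartilage markers (92.9%) were higher in IC and 0 lower (median 2.33). In Dx-IONP 7 of these markers (50%) were higher and 0 lower (median 0.998), beside 20.9% and 24.2% of all genes. Their summed level was 1554 to 1583 CPM over the control lanes, 8294 to 8362 in IC and 2839 to 2910 in Dx-IONP, the same order of libraries as for EGLN3 and NDRG1. No cartilage marker was at 0 in any library. Short ribosomal protein transcripts were lower in IC for 14 of 16 (87.5%, beside 15.1% of all genes). Their median was -3.10, with 4934 to 4980 CPM in control, 1156 to 1172 in IC and 5878 to 5886 in Dx-IONP. Library make-up and expression of these ribosomal genes cannot be told apart here. Liver markers were lower in IC for 12 of 14 (85.7%, beside 15.1% of all genes), with a median of -1.80. In Dx-IONP 5 (35.7%) were lower and 0 higher, beside 24.2% and 20.9% of all genes. The liver markers summed to 34105 to 34324 CPM in control, 8297 to 8384 in IC and 31101 to 31179 in Dx-IONP. The Dx-IONP sum hid unlike rows, with 11 log2 folds below 0 and 3 above. There apobb.1 had 12322 CPM against 6623 in control, and fabp10a 0.59 against 160. The IC library thus differed from control in more than hypoxia genes.

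Over all genes 14.1% were higher and 15.1% lower in IC, and 20.9% were higher and 24.2% lower in Dx-IONP. Of 13 pronephros markers, from the larval kidney, 2 (15.4%) were higher and 1 (7.69%) lower in IC. In Dx-IONP 1 (7.69%) was higher and 8 (61.5%) lower. They summed to 293.5 to 304 CPM in control, 254 to 262 in IC and 132 to 137 in Dx-IONP, and a row of the marker SLC20A1 was at 0 in each library. Of 15 ionocyte markers, from acid- and salt-handling skin cells, 4 (26.7%) were higher and 2 (13.3%) lower in IC. In Dx-IONP 6 (40%) were higher and 2 (13.3%) lower. They summed to 555 to 566 CPM in control, 425 to 434 in IC and 779 to 794 in the Dx-IONP lanes. Most of the gap between Dx-IONP and control lay in 1 row, RHCG (ENSDARG00000003203), an ammonia transporter gene, with 16.1 CPM in control, 45.4 in IC and 235 in the Dx-IONP library. Other markers went the opposite way, with ATP6V1A (ENSDARG00000034534), a proton pump subunit gene, at 328 CPM in control and 193 in Dx-IONP, and RHCG (ENSDARG00000007080) at 28.8 and 4.86. Red blood cell markers were higher for 9 of 12 (75%) in Dx-IONP and for 1 (8.33%) in IC, where 4 (33.3%) were lower. They summed to 1605 to 1636 CPM in control, 935 to 973 in IC and 4343 to 4401 in Dx-IONP. The gap between IC and control lay mainly in 1 row, hbae3, with 1092 CPM in control and 365 in IC. Of the 12 log2 folds 7 were above 0 and 5 below for IC, and 12 were above and 0 below for Dx-IONP. The red cell sum in IC thus does not describe a fall shared by all markers. Of 14 skeletal muscle markers 3 (21.4%) were higher and 2 (14.3%) lower in IC. In Dx-IONP 2 (14.3%) were higher and 1 (7.14%) lower. The control lanes of these muscle markers summed to 52925 to 53202 CPM, the IC lanes to 84591 to 85175 and the Dx-IONP lanes to 78825 to 79272. The single row pvalb1 held most of both gaps to control. Its level was 25340 CPM for the control library, 52393 for IC and 46964 for Dx-IONP. Of the 14 log2 folds 9 were above 0 and 5 below for IC, and 8 were above and 6 below for Dx-IONP. The muscle sums thus do not describe a rise shared by all markers. No ionocyte, liver, red cell or muscle marker was at 0 in any library.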

How the data were processed

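RNA of pooled zebrafish larvae was measured by poly(A) RNA sequencing, with 1 library per condition on 4 lanes. The authors deposited estimated counts per gene and lane as whole numbers, not normalized. The submitters' processing notes name Salmon 1.6.0, FastQC, DESeq2 1.34.0 and R 4.1.2 with the build GRCz11. The sources used here do not say how transcripts were summed to genes or whether strand was used. Salmon divides shared reads between similar transcripts, so counts of duplicated genes are uncertain. Symbols came from a name table; no coordinates or sequences are printed.

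Lanes of a library were summed (lane totals 11847840 to 21329490 reads). TMM factors came from edgeR 4.0.16 in R 4.3.3 over all rows with a read, and genes with at least 1 CPM in a library were kept. Log2 folds used a library-scaled prior count of 2, and exact Clopper-Pearson 95% intervals of the ratio were computed with scipy 1.17.1 in Python 3.11.15. No test between conditions was made with 1 library each. The code was tested on simulated data with counting noise alone and far fewer changed genes than were called here. That does not check the scaling under differences as wide as these.

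The members and gene lists were chosen with earlier results of these data known. Besides the members, the genes named were all tested HIF subunit, sensor, EGLN and NDRG rows, up to 4 counted rows with the largest log2 folds per list and comparison, and the 3 genes nearest to each member. CA8, cahz, LDHA, tfr1b, both VEGFA rows and the second rows of EGLN1, PKM and BNIP3L fall outside that rule. They were named after their values were seen. The same holds for ionocyte markers RHCG and ATP6V1A, liver markers apobb.1 and fabp10a, the red cell marker hbae3 and the muscle marker pvalb1. Not every gene the rule selects is printed. Alternatives were DESeq2 1.42.0 size factors, total reads, other filters, a prior count of 0.5 and each lane left out.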

Additional observations from a re-analysis of the deposited data

Results flagged for a closer look

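For 67 named genes, 4 lanes per library were compared, which gave 201 sets of lanes. In 9 of them (4.48%) 1 lane stood apart, with a gap to its neighbour, as a share of the whole range, above Dixon's 95% critical value; chance flags about 1 set in 20. For NDRG1 the lowest IC lane had 10181 reads against 10708 on the highest, a gap of 0.853 of the range. The other gaps were 0.923 for SLC16A3 (ENSDARG00000045051) in control, and in Dx-IONP 0.836 for PKM (ENSDARG00000099860) and 0.963 for BNIP3L (ENSDARG00000028067). They were 0.833 for MXI1 in IC, 0.849 for NDUFA4L2 in control and 0.887 for tfr1a in control. For kdm4c in Dx-IONP the gap was 0.912 and for ADCYAP1R1 in control 0.844.

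For 17 of the 67 genes all lanes of IC lay on one side of the control lanes and all lanes of Dx-IONP on the other. This difference was not tested. Many of the 67 genes were named for large folds or for likeness to a member, and the share over all genes was not counted. Without that share, whether 17 of 67 is unusual cannot be told. The values that follow are log2 folds of Dx-IONP against IC. Above control in IC and below it in Dx-IONP were ca9 at -2.60, ARNT2 at -1.56, HIF1A at -1.01, P4HTM (ENSDARG00000071233) at -2.71, PKM (ENSDARG00000099860) at -1.66, STC2 (ENSDARG00000056680) at -3.30, CXCL12 (ENSDARG00000037116) at -3.85, APLN at -2.41, BNIP3 at -2.15, MXI1 at -2.30, col18a1b at -2.42, NDRG4 at -4.50, ADCYAP1R1 at -2.50, HIC1 at -2.58 and INHBA at -2.66. The last 3 were picked for their likeness to ca9. The opposite order was seen for RBX1 at 1.93 and HMOX1 at 2.27.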

How the results depend on the processing

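No paired analysis was possible because the shared numbers are lanes of 1 library per condition and no test was made. The 3 members kept the direction of every called log2 fold under all 9 alternatives. Total reads alone shifted the median gene by -0.35 in Dx-IONP against control. It gave 1.24 for EGLN3, -0.024 for NDRG1 and -1.41 for ca9 in that comparison, -0.93, -1.75 and -2.90 in Dx-IONP against IC, and 1.73 for NDRG1 in IC against control. Under it 2301 genes (13.7%) were higher in Dx-IONP than in control, and so were 13 of 93 hypoxia pathway genes (14.0%). Against IC 9 of these 93 (9.68%) were higher, beside 17.5% of all genes. NDRG1 in IC against control was at 1.83 with DESeq2 size factors. With a filter of 10 CPM and the scaling refitted, NDRG1 was at 1.77, 0.28 and -1.49 in IC against control, Dx-IONP against control and Dx-IONP against IC. That filter tested fewer genes, so 2607 were lower in Dx-IONP than in control and 2934 lower than in IC. No filter and a prior count of 0.5 kept the members' values within their counting intervals. With 1 lane left out, IC against control ranged from 2.20 to 2.30 for EGLN3, 1.80 to 1.81 for NDRG1 and 1.49 to 1.62 for ca9. Lanes share a library, so this range says nothing about other pools of larvae.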
